A study of Mus musculus with 2 samples.

Results

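Keratinocytes, the cells that build the epidermis, make their own fatty acids and cholesterol, and the transcripts of 40 genes for that synthesis are described here in cultures from mouse tails. They were taken by symbol from a list of sterol enzymes, fatty acid enzymes and the regulators of both. All 40 were found among the 47719 genes of the table, and 39 reached 1 CPM (a gene's reads scaled by the size of its library) in at least 1 library, the level called expressed here. RNA was sequenced from 1 culture of the genotype K5.Pp6fl/fl and 1 culture of the genotype Pp6fl/fl, both on a C57BL/6J background. The labels give an age of 8 weeks for both, and the cells were kept in Medium 154CF for 3 days. K5.Pp6fl/fl cells are labelled a conditional knockout, with K5 naming the keratin 5 gene of basal keratinocytes, while Pp6fl/fl cells carry the floxed alleles alone. Pp6, named Ppp6c in the table, encodes the catalytic subunit of protein phosphatase 6. The number of mice behind a culture is not stated.

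With 1 library per genotype there is no spread between replicates, so no difference below has a test, and the 95% intervals are for counting error alone. A range in brackets after a pair of CPM values is the interval of their ratio, K5.Pp6fl/fl over Pp6fl/fl. The K5.Pp6fl/fl library held 17361257 estimated reads and the Pp6fl/fl library 19374772. Ppp6c had 707 reads in the K5.Pp6fl/fl library and 1074 in the Pp6fl/fl library, which is 0.733-fold (0.665 to 0.806) at 40.7 CPM in K5.Pp6fl/fl cells and 55.5 CPM in Pp6fl/fl cells. By FPKM, which also scales by gene length, its fold was 0.548 (16.8 in K5.Pp6fl/fl cells and 30.6 in Pp6fl/fl cells). The table has no values per exon, so reads outside a deleted part of the gene are included. The keratinocyte markers Krt14, Krt5 and Col17a1 were abundant, and the 6 markers of that list together made up 5.35% of K5.Pp6fl/fl reads and 5.69% of Pp6fl/fl reads. All 6 were below 0 in log2 ratio (K5.Pp6fl/fl over Pp6fl/fl), from -0.37 to -0.02, so the summed share does not show the lowest of them. Of all 12326 expressed genes, 6555 were below 0. Of 8 sebocyte markers, which matter here because sebaceous glands make much lipid, only Cidea was expressed, and the list summed to 7.59 CPM in the K5.Pp6fl/fl library, against 7.55 CPM in the Pp6fl/fl library. The sebocyte genes Awat1 and Dgat2l6, the adipocyte genes Adipoq, Plin1, Cidec, Lep, Retn and Cfd, and the immune cell genes Ptprc, Cd207, Cd3e, Cd74 and H2-Aa were at 0 in both libraries. No fibroblast or endothelial marker was expressed. Melanocyte markers were few but higher, with a sum of 15 CPM over 5 genes in the K5.Pp6fl/fl library, against 7.34 CPM in the Pp6fl/fl library. Their part in the differences below was not tested. In such bulk RNA, fewer cells of a type and less RNA per cell cannot be told apart.

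Cholesterol and fatty acids both start from acetyl-CoA in the cytosol. Cholesterol is built through mevalonate, isoprenoid diphosphates, squalene and lanosterol, and fatty acids through malonyl-CoA and palmitate, which is then elongated, desaturated and coupled to coenzyme A. Sterol regulatory element binding proteins (SREBPs) drive transcription of both routes. When membranes hold enough sterol, Insig proteins keep the SREBP escort Scap in the endoplasmic reticulum, and when sterol is short Scap carries SREBP to the Golgi, where proteases free its active part. In the epidermis these lipids also enter the extracellular layers of the permeability barrier.

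The stretches of DNA upstream of 4 genes are shown because these genes differ in role and in value: Hmgcs1 was the most abundant sterol gene by reads, Fasn was lower, Acly was slightly higher, and Acsl5 alone passed the 1.2-fold rule given below. Their windows also overlap no annotated exon. Each holds the 250 bases before the transcription start of RefSeq (GRCm38.p6), read 5′ to 3′ in the direction of the gene, and capitals mark matches to 3 motifs on either strand. The motifs are TCACNCCAC, bound by SREBP, CCAAT, bound by NF-Y, and GGGCGG, bound by Sp1. Hmgcs1 lies on the plus strand at chr13:119690101-119690350, Fasn on the minus strand at chr11:120824548-120824797, Acly on the minus strand at chr11:100528001-100528250, and Acsl5 on the plus strand at chr19:55253119-55253368.
Hmgcs1: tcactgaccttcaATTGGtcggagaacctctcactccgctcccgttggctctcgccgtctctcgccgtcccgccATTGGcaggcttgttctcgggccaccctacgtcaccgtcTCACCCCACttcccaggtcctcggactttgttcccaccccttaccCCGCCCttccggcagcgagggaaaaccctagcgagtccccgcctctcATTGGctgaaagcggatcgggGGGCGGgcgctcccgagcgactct
Fasn: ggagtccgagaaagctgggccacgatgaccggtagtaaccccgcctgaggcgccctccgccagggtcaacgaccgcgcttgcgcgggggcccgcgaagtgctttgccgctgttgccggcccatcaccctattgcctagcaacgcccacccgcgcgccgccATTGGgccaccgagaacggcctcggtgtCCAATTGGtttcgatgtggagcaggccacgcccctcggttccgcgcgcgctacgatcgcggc
Acly: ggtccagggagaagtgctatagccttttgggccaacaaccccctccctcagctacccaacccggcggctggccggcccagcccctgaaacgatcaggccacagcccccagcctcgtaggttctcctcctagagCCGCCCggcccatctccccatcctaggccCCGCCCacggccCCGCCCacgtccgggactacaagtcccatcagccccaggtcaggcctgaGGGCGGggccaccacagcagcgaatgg
Acsl5: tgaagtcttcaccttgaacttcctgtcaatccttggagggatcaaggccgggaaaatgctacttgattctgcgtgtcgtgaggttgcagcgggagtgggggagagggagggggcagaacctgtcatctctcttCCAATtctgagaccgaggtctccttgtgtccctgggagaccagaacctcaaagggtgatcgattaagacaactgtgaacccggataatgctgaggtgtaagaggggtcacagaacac
The Hmgcs1 stretch held 1 match to TCACNCCAC, at 137 to 129 bases before the start, 3 matches to CCAAT and 2 to GGGCGG. In Fasn there were 3 matches to CCAAT, of which 2 overlap as the capital run that reads the same on both strands, and in Acsl5 there was 1. Acly held 4 matches to GGGCGG and none to the other motifs.

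Of the 40 genes, 33 had at least 1 upstream stretch in the RefSeq table, and Fdft1, Stard4, Fads1, Fdps, Sqle, Scd1 and Scd2 had none. CCAAT was found upstream of 26 of these 33 genes (78.8%), against 37.5% of 27025 genes in the table, and GGGCGG also upstream of 26 (78.8%), against 35.4%. TCACNCCAC was found upstream of Hmgcs1 and Acsl1 (6.06%), against 1.22%. A gene counted if any of its stretches matched, and 7 of the 33 had 2 or 3 listed starts. Over single stretches, the shares of 43 member stretches and of all 32851 were 62.8% and 33.8% for CCAAT. They were 67.4% and 32.7% for GGGCGG, and 4.65% and 1.05% for TCACNCCAC. The 27025 genes were not limited to expressed ones. A match is a run of letters, not a bound site, and no match says only that these letters are not in the 250 bases.

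By reads, the lipid synthesis genes stood at nearly the same level in both libraries. Together the 40 genes took 7736 CPM in the K5.Pp6fl/fl library, against 7506 CPM in the Pp6fl/fl library, a fold of 1.03 (1.02 to 1.04). The median log2 ratio of the 39 expressed genes was 0.01, against -0.01 over all 12326 expressed genes. None was 2-fold apart, a rule that 0.811% of expressed genes passed as higher and 0.195% as lower in K5.Pp6fl/fl (0.159% and 0.0133% of genes at 20 CPM or more). At least 1.2-fold, with an interval that leaves out 1, only Acsl5 was higher and none was lower, that is 2.56% and 0% of the expressed members, where the background was 9.22% higher and 6.32% lower (7.08% and 5.02% at 20 CPM or more).

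An interval above 1 was found for 8 expressed members (20.5%) and one below 1 for 5 (12.8%), where the background was 16.6% above and 17.4% below. Abundant genes have narrower intervals, so genes at 20 CPM or more in either library, a limit chosen after the values were seen, give a closer background. All 8 and all 5 were among the 38 members at that level, or 21.1% and 13.2%, beside 19% and 22.9% of 7532 genes. Within 0.15 of 0 in log2 ratio lay 34 of the 38 members (89.5%) and 68.9% of all genes at that level. The median size of the log2 ratio was 0.06 in the members and 0.09 in all genes at 20 CPM or more. These sets share the 20 CPM limit but were not matched in abundance above it. Log2 ratios of abundant genes vary less by counting error, and how far that narrows the members' spread was not tested.

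**Figure D1:**
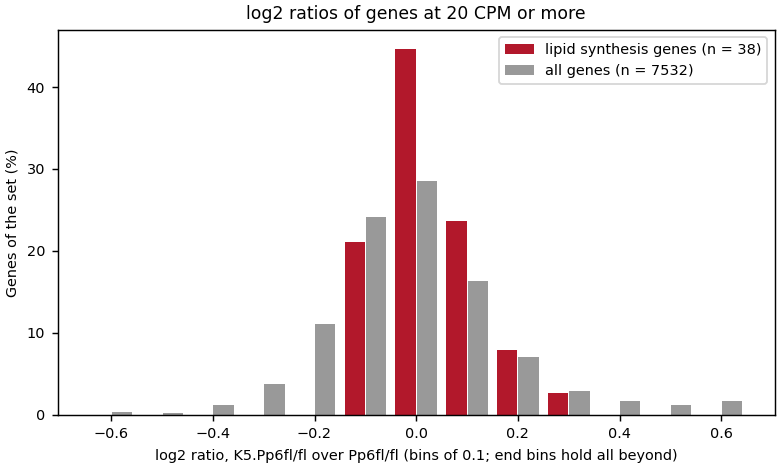
The percentage of genes in each bin of log2 ratio (K5.Pp6fl/fl over Pp6fl/fl, bins of 0.1) is shown for the 38 lipid synthesis genes at 20 CPM or more in red and for all 7532 genes at that level in grey, 1 library per genotype. The red bars lie between -0.15 and 0.35, with 44.7% of the members in the middle bin against 28.5% of all genes, and genes beyond 0.65 in size are in the outer bins. The sets were not matched in abundance above 20 CPM.

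The first enzymes of the sterol route make mevalonate and turn it into isoprenoid diphosphates, and their 7 genes summed to 1922 CPM in the K5.Pp6fl/fl library, against 1852 CPM in the Pp6fl/fl library. This is a fold of 1.04 (1.02 to 1.05), and the median log2 ratio of the 7 was 0.03. Hmgcs1, which joins acetyl-CoA and acetoacetyl-CoA to HMG-CoA, had 15210 reads in K5.Pp6fl/fl cells and 16576 in Pp6fl/fl cells, or 875 and 857 CPM. Its fold was 1.02 (0.999 to 1.04), with 1 inside the interval. Acat2, which makes acetoacetyl-CoA, was at 104 CPM in K5.Pp6fl/fl cells and 103 CPM in Pp6fl/fl cells (0.952 to 1.08).

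Next in the route stand the mevalonate kinases. Mvk was at 46.1 CPM in K5.Pp6fl/fl cells and 46.3 CPM in Pp6fl/fl cells, a fold of 0.995 (0.903 to 1.1). Pmvk, which adds the second phosphate, was at 62.8 CPM in K5.Pp6fl/fl cells and 55.7 CPM in Pp6fl/fl cells, a fold of 1.13 (1.03 to 1.23). The decarboxylase Mvd had a fold of 0.941 (0.87 to 1.02). These neighbouring enzymes thus lay on both sides of 1, and of them only the interval of Pmvk left it out. Idi1, which interconverts the isopentenyl and dimethylallyl diphosphates, had 6832 reads in K5.Pp6fl/fl cells and 6907 in Pp6fl/fl cells, a fold of 1.1 (1.06 to 1.14). By FPKM its fold was 1.02. Fdps, which condenses these units to farnesyl diphosphate, was at 373 CPM in K5.Pp6fl/fl cells and 362 CPM in Pp6fl/fl cells (0.996 to 1.07), and per gene length it was the most abundant of the 40 genes, at 395 and 384 FPKM.

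The later enzymes, which make squalene, close it to lanosterol and turn that into cholesterol, were slightly lower as a sum. Their 11 genes stood at 1605 CPM in the K5.Pp6fl/fl library, against 1639.6 CPM in the Pp6fl/fl library, a fold of 0.979 (0.963 to 0.995). By FPKM the direction was the opposite, with a fold of 1.03. The median log2 ratio was -0.03, 4 genes lay above 0 and 7 below, and 2 had an interval below 1 and none above. Of all 12326 expressed genes, 5771 lay above 0 and 6555 below, and 17.4% had an interval below 1 and 16.6% above. Counts over these 11 genes are a description and no result about the arm. Fdft1, squalene synthase, was at 177 CPM in K5.Pp6fl/fl cells and 169 CPM in Pp6fl/fl cells (0.993 to 1.1). Exons of Ctsb overlap it on the opposite strand, with 5205 reads in K5.Pp6fl/fl cells and 5202 in Pp6fl/fl cells. Sqle, the oxygen-dependent epoxidase of squalene, was at 180.1 CPM in K5.Pp6fl/fl cells and 184 CPM in Pp6fl/fl cells (0.931 to 1.03). Lss, the cyclase that makes lanosterol, was at 276 CPM in K5.Pp6fl/fl cells and 283 CPM in Pp6fl/fl cells (0.938 to 1.01). The libraries did not differ beyond counting error at these steps.

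The lanosterol demethylase Cyp51 was at 385 CPM in K5.Pp6fl/fl cells and 397 CPM in Pp6fl/fl cells (0.94 to 1). Msmo1, which oxidises methyl groups of the sterol ring, had 3965 reads in K5.Pp6fl/fl cells and 4688 in Pp6fl/fl cells, or 228 and 242 CPM, a fold of 0.941 (0.902 to 0.982). It acts in the same demethylation as Nsdhl and Hsd17b7, whose folds were 0.973 (0.901 to 1.05) and 0.996 (0.927 to 1.07). Of the genes for the last double bond changes, the isomerase Ebp was at 1 (0.892 to 1.13) and the desaturase Sc5d at 1.08 (0.997 to 1.16). The sterol reductase Tm7sf2 had only 72 reads in K5.Pp6fl/fl cells and 63 in Pp6fl/fl cells, 1.27-fold, with an interval of 0.894 to 1.81. It shares exon sequence with Vps51 on the same strand, and its reads were fractional, so its value is uncertain.

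Dhcr7, the reductase that converts the last precursor to cholesterol, had the lowest fold of the 39 expressed genes. It had 1609 reads in K5.Pp6fl/fl cells and 1968 in Pp6fl/fl cells, or 92.6 and 102 CPM, a fold of 0.91 (0.851 to 0.972). By FPKM it was on the other side of 1, at 77.1 in K5.Pp6fl/fl cells and 57.7 in Pp6fl/fl cells, a fold of 1.34, so no direction can be given for this gene that holds for both measures. Stard4, which carries cholesterol between membranes and is a textbook SREBP target, was at 78.2 CPM in K5.Pp6fl/fl cells and 77.3 CPM in Pp6fl/fl cells (0.939 to 1.09). All 19 sterol genes, Stard4 included, summed to a fold of 1.01 (0.999 to 1.02).

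**Figure D2:**
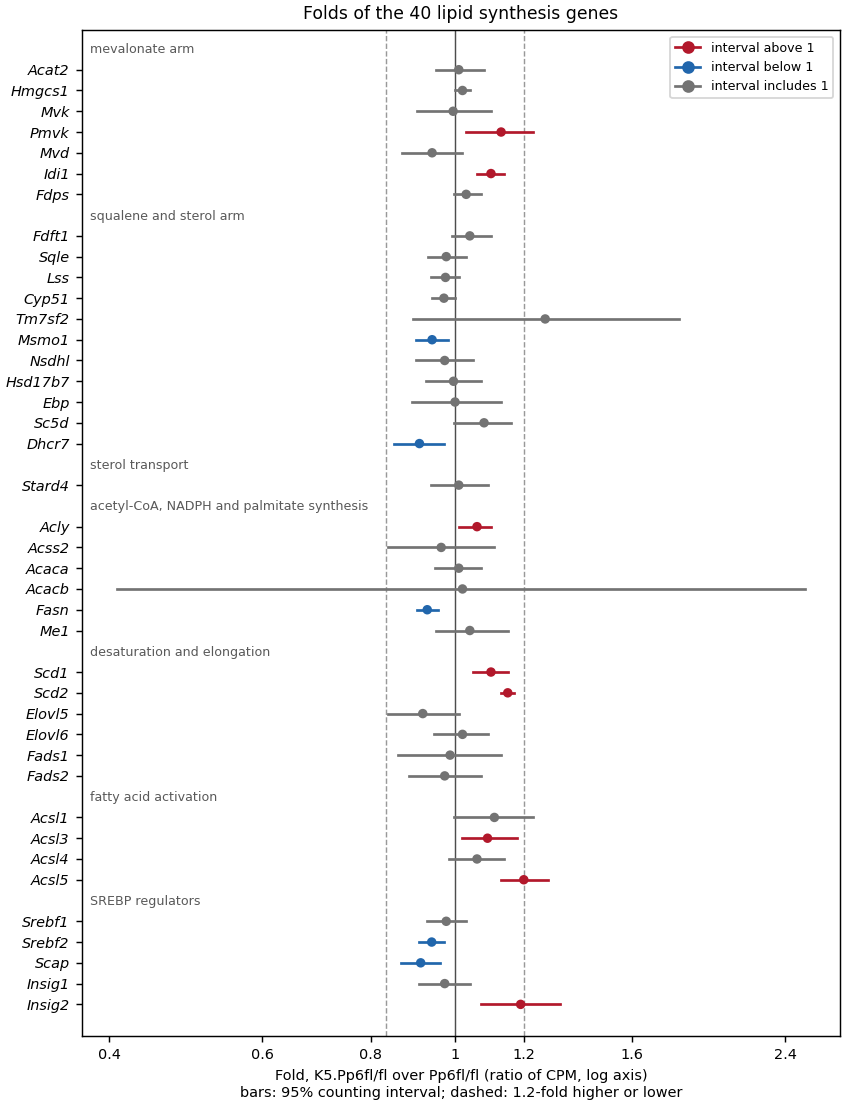
The fold of each of the 40 genes (K5.Pp6fl/fl over Pp6fl/fl, ratio of CPM, log axis) is plotted by role, with bars for the 95% counting interval and dashed lines at 1.2-fold higher and lower. Intervals above 1 are red (8 genes), those below 1 blue (5 genes) and the rest grey, and Acacb, with 11 and 12 reads, has the widest bar (0.408 to 2.53).

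The genes that supply carbon and make palmitate showed small differences of opposite sign. The 6 genes summed to 946 CPM in the K5.Pp6fl/fl library, against 968 CPM in the Pp6fl/fl library, a fold of 0.977 (0.956 to 0.997), while the median log2 ratio of the 5 expressed ones was 0.01. Acly, which splits citrate to give cytosolic acetyl-CoA, had 4385 reads in K5.Pp6fl/fl cells and 4618 in Pp6fl/fl cells, or 252 and 239 CPM, a fold of 1.06 (1.01 to 1.1). Fasn, the multifunctional synthase that makes palmitate, had 8726 reads in K5.Pp6fl/fl cells and 10453 in Pp6fl/fl cells, or 502 and 540.2 CPM, a fold of 0.929 (0.903 to 0.956). Fasn gave 8726 of the 16441 reads of its group in K5.Pp6fl/fl cells. By FPKM its fold was 0.847.

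Between these enzymes stands acetyl-CoA carboxylase, which makes malonyl-CoA. Its gene Acaca was at 118 CPM in both K5.Pp6fl/fl and Pp6fl/fl cells (0.948 to 1.07). Acacb, the isoform tied to mitochondria, had 11 reads in K5.Pp6fl/fl cells and 12 in Pp6fl/fl cells and was the member below the floor, at which depth no difference was detectable. Acss2, which makes acetyl-CoA from acetate, was at 21.3 CPM in K5.Pp6fl/fl cells and 22.1 CPM in Pp6fl/fl cells (0.837 to 1.11). Me1, the malic enzyme that yields NADPH, was at 51.1 CPM in K5.Pp6fl/fl cells and 48.9 CPM in Pp6fl/fl cells (0.952 to 1.15).

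Among the genes that desaturate and elongate fatty acids the stearoyl-CoA desaturases were higher in K5.Pp6fl/fl cells, and the other 4 genes had intervals that included 1. Scd2 was the most abundant of the 40 genes by reads, with 27862 in K5.Pp6fl/fl cells and 27065 in Pp6fl/fl cells, or 1603 and 1399 CPM, a fold of 1.15 (1.13 to 1.17). Scd1, which puts the same double bond into palmitate and stearate, was at 207 CPM in K5.Pp6fl/fl cells and 188 CPM in Pp6fl/fl cells, a fold of 1.1 (1.05 to 1.15). The closely related Scd genes may share reads. Summed over Scd1 to Scd4 they gave 1813 CPM in K5.Pp6fl/fl cells and 1591 CPM in Pp6fl/fl cells, a fold of 1.14 (1.12 to 1.16).

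The ratio of Scd2 to Scd1 reads, which no scaling between libraries enters, was 7.73 in K5.Pp6fl/fl cells and 7.44 in Pp6fl/fl cells, a ratio of ratios of 1.04 (0.99 to 1.09). The 2 desaturases were thus not shown to differ from each other in their fold. The 6 genes, with 27862 of their 34985 reads in K5.Pp6fl/fl cells from Scd2, summed to a fold of 1.12 (1.11 to 1.14), although their median log2 ratio was 0.00. Elovl6, which elongates palmitate, had a fold of 1.02 (0.945 to 1.09). Elovl5, which elongates polyunsaturated fatty acids, was at 48.1 CPM in K5.Pp6fl/fl cells and 52.5 CPM in Pp6fl/fl cells, a fold of 0.918 (0.837 to 1.01). The desaturases of polyunsaturated fatty acids, Fads1 and Fads2, were at 0.987 (0.859 to 1.13) and 0.973 (0.886 to 1.07).

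Long-chain acyl-CoA synthetases couple free fatty acids to coenzyme A, which commits them to lipid synthesis or to breakdown. All 4 members had folds above 1, as did 5771 of 12326 expressed genes, and the intervals of 2 of the 4 left out 1. A count over 4 genes is a description only. The 4 members summed to 332 CPM in the K5.Pp6fl/fl library, against 295 CPM in the Pp6fl/fl library. This is a fold of 1.13 (1.08 to 1.17), with a median log2 ratio of 0.14. Acsl5 had 2197 reads in K5.Pp6fl/fl cells and 2031 in Pp6fl/fl cells, or 126 and 105 CPM, and was 20.4% higher (a fold of 1.2, 1.13 to 1.28). It passed the 1.2-fold rule by a small margin. Zdhhc6, whose exons overlap it on the opposite strand, had 951 reads in K5.Pp6fl/fl cells and 1077 in Pp6fl/fl cells, and the kit does not mark strand. Acsl3 was at 80.9 CPM in K5.Pp6fl/fl cells and 74 CPM in Pp6fl/fl cells, a fold of 1.09 (1.02 to 1.18), and shares exon sequence with Utp14b.

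Acsl1 and Acsl4 had folds of 1.11 (0.997 to 1.23) and 1.06 (0.985 to 1.14). The ratio of Acsl5 to Acsl1 reads was 3.04 in K5.Pp6fl/fl cells and 2.79 in Pp6fl/fl cells, a ratio of ratios of 1.09 (0.964 to 1.23). The ratio of Acsl5 to Fasn reads was 0.252 in K5.Pp6fl/fl cells and 0.194 in Pp6fl/fl cells, a ratio of ratios of 1.3 (1.21 to 1.39), a pair chosen after its values were seen. Over whole arms, the 16 fatty acid genes had 0.913 reads for each read of the 19 sterol genes in K5.Pp6fl/fl cells and 0.856 in Pp6fl/fl cells. This is a ratio of ratios of 1.07 (1.05 to 1.08), and Scd2 alone gave 27862 of the 57193 fatty acid reads in K5.Pp6fl/fl cells.

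**Figure D3:**
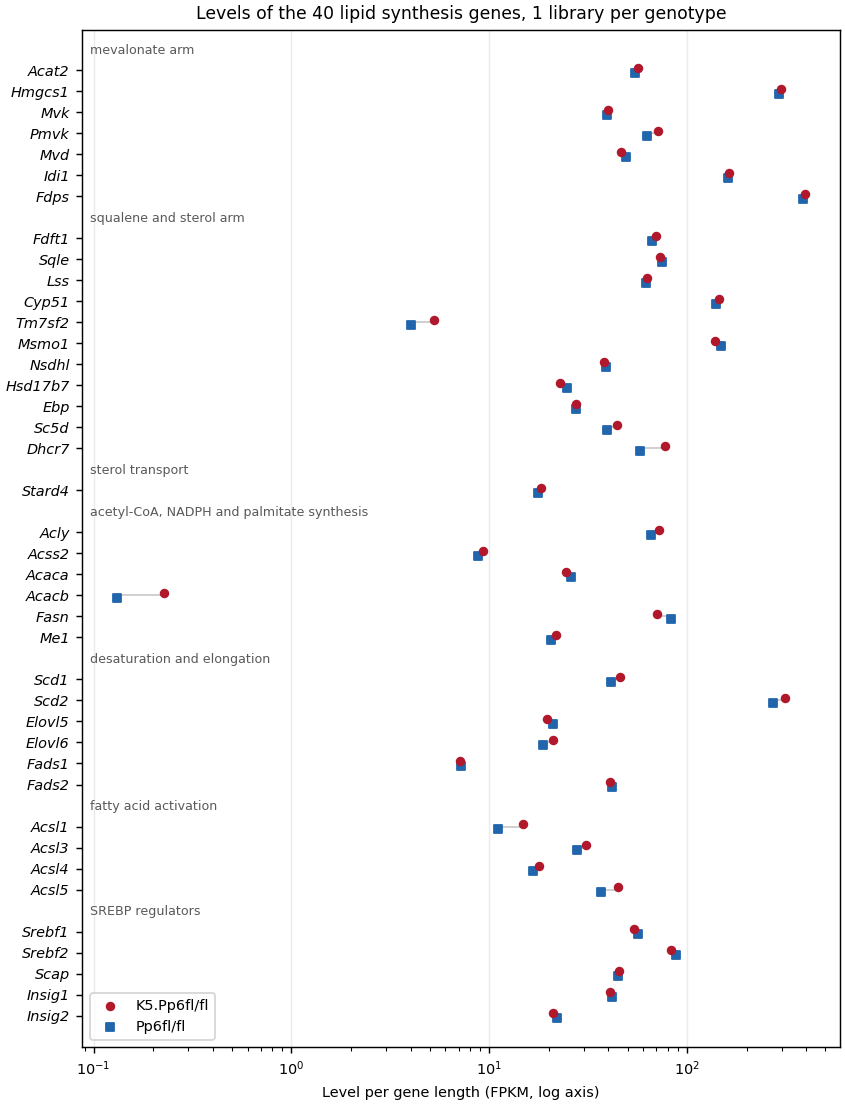
The level per gene length (FPKM, log axis) of each of the 40 genes is shown for the K5.Pp6fl/fl library as red circles and the Pp6fl/fl library as blue squares, by role. Levels run from Acacb (0.226 and 0.131 FPKM) to Fdps (395 and 384 FPKM), and the symbols of most genes touch or overlap.

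The regulators were close to equal or slightly lower, apart from Insig2. Srebf2, whose product mainly drives sterol genes, had 6757 reads in K5.Pp6fl/fl cells and 8005 in Pp6fl/fl cells, or 389 and 414 CPM, a fold of 0.94 (0.909 to 0.971). Srebf1, whose products mainly drive fatty acid genes, was at 167 CPM in K5.Pp6fl/fl cells and 171 CPM in Pp6fl/fl cells (0.929 to 1.03). The ratio of Srebf1 to Srebf2 reads gave a ratio of ratios of 1.04 (0.979 to 1.1). Srebf1 overlaps Rai1 on the opposite strand. Scap was at 149 CPM in K5.Pp6fl/fl cells and 163 CPM in Pp6fl/fl cells, a fold of 0.913 (0.867 to 0.962), whereas by FPKM it was at 45.1 and 44.9, a fold of 1.

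The Insig genes, which encode the proteins that hold Scap back, differed from each other in reads. Insig1, itself a target of SREBP, was at 94 CPM in K5.Pp6fl/fl cells and 96.6 CPM in Pp6fl/fl cells, a fold of 0.973 (0.91 to 1.04). Insig2 had 734 reads in K5.Pp6fl/fl cells and 686 in Pp6fl/fl cells, or 42.2 and 35.5 CPM, a fold of 1.19 (1.07 to 1.32) just short of the 1.2-fold rule. The ratio of Insig2 to Insig1 reads was 0.449 in K5.Pp6fl/fl cells and 0.367 in Pp6fl/fl cells, a ratio of ratios of 1.22 (1.08 to 1.39). By FPKM the same ratio was 0.51 in K5.Pp6fl/fl cells and 0.53 in Pp6fl/fl cells, so the difference was present in reads and not in FPKM.

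Reads and FPKM can part because FPKM divides by an effective gene length that was set in each library. The length implied by reads over FPKM, K5.Pp6fl/fl over Pp6fl/fl and scaled to its median over genes, was within 5% of 1 for 28 of 39 members. For 4 it was beyond 10%: Dhcr7 (0.684), Acsl1 (0.832), Fasn (1.1) and Insig2 (1.26), or 10.3% of the members beside 13.7% of 10661 genes with at least 50 reads in both libraries. By FPKM 4 members were at least 1.2-fold higher, namely Acsl5, Dhcr7, Acsl1 and Tm7sf2, and none was lower, where the background by FPKM was 16% higher and 13.9% lower. Whether the isoforms of these genes differ was not tested, since the table gives no values per transcript.

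**Figure D4:**
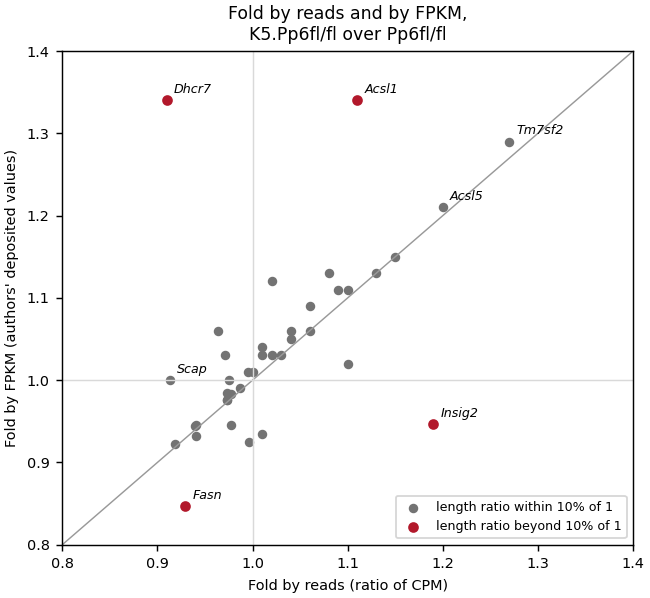
The fold by FPKM is plotted against the fold by reads (both K5.Pp6fl/fl over Pp6fl/fl) for the 39 expressed genes, with a line where they are equal. Dhcr7, Acsl1, Fasn and Insig2, in red, have an implied length beyond 10% of 1, which by its definition places them away from the line. Dhcr7 (0.91 by reads, 1.34 by FPKM) and Insig2 (1.19 and 0.947) change side.

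In the authors' deposited table no member had a log2 fold change of 1 or more in size. A false discovery rate (FDR) under 0.05 was listed there for 4 members, beside 14.4% of expressed genes. The log2 fold change listed with it was above 0 for 3 and below 0 for 1, beside 8.86% and 5.5% of expressed genes. By reads all 4 were higher, with intervals above 1. They were Acsl5, with a log2 fold change of 0.27 and an FDR of 0.00036 in the authors' deposited table, Scd2 (0.20, 0.000408), Idi1 (0.02, 0.0391) and Insig2 (-0.08, 0.0319). The log2 fold change that the authors' deposited table gives for Insig2 is below 0 while its reads were higher, as its fold by FPKM was 0.947. For Dhcr7 the authors' deposited table lists 0.42 with an FDR of 0.232. The listed log2 fold changes of Idi1, Insig2 and Dhcr7 lie near their folds by FPKM (1.02, 0.947 and 1.34). They do not lie near their folds by reads (1.1, 1.19 and 0.91). The listed FDR did not follow the size of the listed log2 fold change. Acsl1 (0.41) and Dhcr7 (0.42) had FDRs of 0.286 and 0.232, while Idi1 (0.02) and Insig2 (-0.08) were under 0.05. Which measure gave the FDR is not stated, so the sign of a listed log2 fold change is no tested direction. Those values rest on the same 1 library per genotype.

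Other genes of sterol handling were looked up in lists of related genes, for which the background of the 1.2-fold rule was again 9.22% higher and 6.32% lower. These lists are short, so counts of 1 or 2 genes are given as a description and are no result about a list. Of 8 other sterol synthesis genes 7 were expressed, none was at least 1.2-fold higher and 1 was lower, with a median log2 ratio of -0.05. This was Por, the reductase that passes electrons to Cyp51 and Sqle, at 106 CPM in K5.Pp6fl/fl cells and 138 CPM in Pp6fl/fl cells, a fold of 0.769 (0.724 to 0.816). Among 16 expressed genes for SREBP processing and turnover none was 1.2-fold apart and the median log2 ratio was 0.02. Of these the transcription factor Sp1 was at 1.01 (0.966 to 1.06).

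Of 17 genes for sterol uptake, efflux and esterification 13 were expressed, with 1 past the 1.2-fold rule in each direction and a median log2 ratio of 0.07. Mylip, a ubiquitin ligase induced by sterol excess, had 331 reads in K5.Pp6fl/fl cells and 556 in Pp6fl/fl cells, or 19 and 28.7 CPM, a fold of 0.663 (0.577 to 0.761). Abcg1, a sterol exporter, was at 16.2 CPM in K5.Pp6fl/fl cells and 13.3 CPM in Pp6fl/fl cells, a fold of 1.22 (1.02 to 1.45).

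Of 26 other genes of fatty acid synthesis 17 were expressed, 1 past the 1.2-fold rule as higher and 2 as lower, beside a background of 9.22% and 6.32%, with a median log2 ratio of 0.00. Mid1ip1, whose product promotes the assembly of acetyl-CoA carboxylase into active polymers, had 2958 reads in K5.Pp6fl/fl cells and 2051 in Pp6fl/fl cells, or 170.2 and 106 CPM, a fold of 1.61 (1.52 to 1.7). That is a larger fold than in any of the 39 expressed members. Scd3, a desaturase known from sebaceous glands, had 32 reads in K5.Pp6fl/fl cells and 77 in Pp6fl/fl cells, a fold of 0.463 (0.296 to 0.707), on the opposite side of 1 from Scd1 and Scd2. Hacd1, a dehydratase of fatty acid elongation, was at 11.8 CPM in K5.Pp6fl/fl cells and 15.8 CPM in Pp6fl/fl cells, a fold of 0.746 (0.622 to 0.893).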

How the data were processed

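The deposited table gives, per gene, an estimated count and an FPKM value for each library and the authors' log2 fold change, p-value and FDR. The submitters' processing notes name RSEM, edgeR and mm8 without roles; anything further stands as not given in the sources used here. Deposited estimated counts are multiples of 1 constant per library: divided by it, 97.4% (K5.Pp6fl/fl) and 97.3% (Pp6fl/fl) of values under 100 reads were whole within 0.01. Those reads were used, rounded for intervals. The design had assumed unscaled counts. CPM used TMM-scaled totals (edgeR 4.0.16, R 4.3.3). Folds are CPM ratios with exact conditional binomial intervals (scipy 1.17.1), and log2 ratios add 0.5 CPM. Ratios between genes within a library have exact conditional intervals, or log-Wald ones for Scd and whole arms. Steps were tested on simulated data. The kit does not mark strand, and 13 members share exon sequence with another counted gene on the same or the opposite strand. Fdps, Tm7sf2 and Acsl3 had fractional reads. Symbols matched 47219 of 47719 IDs. The members and lists were chosen with earlier results of these data known. Named are the members, Ppp6c, up to 3 genes past the 1.2-fold rule per related list (otherwise the 2 most abundant), and the top or absent markers; 1 gene that this rule takes is not reported here.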

Additional observations from a re-analysis of the deposited data

How the results depend on the processing

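No paired analysis was possible because each genotype has 1 library, and none could be left out. Pseudocounts of 0.1 and 2 CPM, filters at 5 CPM, at 20 CPM (added after the data were seen) or none, DESeq2 size factors and total counts kept each member count within 1.5 times its value. The summed folds, which pseudocounts and filters do not enter, stayed inside their intervals with DESeq2 size factors and total counts. Using the count columns as deposited raised every fold by 0.965% and gave 2 members at least 1.2-fold higher in place of 1 and 13 intervals above 1 in place of 8, so a shift of that size carries narrow intervals across 1. By FPKM, which has no interval, 4 members were at least 1.2-fold higher, the sum of fatty acid activation genes was 1.17-fold, and the sum of the squalene and sterol arm, 0.979-fold by reads, was 1.03-fold. Of the 13 members whose interval by reads left out 1, those on the other side of 1 by FPKM were Dhcr7 (1.34) and Insig2 (0.947), while Scap was level (1). The implied gene length is reads over FPKM, so by definition it moves wherever these folds differ. The cause was not tested. For genes under 100 reads, such as Tm7sf2 and Acacb, depth was the limit.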

Other observations

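Genes that use or break down fatty acids were also measured. Of 17 genes of glycerolipid synthesis 16 were expressed, 2 were at least 1.2-fold higher and none lower, beside 9.22% higher and 6.32% lower over all expressed genes. Lpin2, a phosphatidate phosphatase that makes diacylglycerol, was at 39.1 CPM in K5.Pp6fl/fl cells and 31.8 CPM in Pp6fl/fl cells, a fold of 1.23 (1.1 to 1.37). Dgat2, which makes triglyceride, was at 22.6 CPM in K5.Pp6fl/fl cells and 18.8 CPM in Pp6fl/fl cells, a fold of 1.21 (1.04 to 1.39), and by FPKM its fold was 1.13, short of that rule. The median log2 ratio of the 16 was -0.01.

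Of 24 genes of fatty acid oxidation 22 were expressed, 2 were at least 1.2-fold higher and none lower, a share close to the 9.22% of all expressed genes, and the median log2 ratio was 0.02. Both genes encode enoyl-CoA isomerases, which move double bonds so that unsaturated fatty acids can be broken down. Eci2 had 198 reads in K5.Pp6fl/fl cells and 141 in Pp6fl/fl cells, a fold of 1.56 (1.25 to 1.95), and Eci1 had 242 and 203 reads, a fold of 1.33 (1.1 to 1.61). Of 7 genes of NADPH supply all were expressed and 1 was lower (median log2 ratio -0.03). It was Me3, a mitochondrial malic enzyme, with 18 reads in K5.Pp6fl/fl cells and 38 in Pp6fl/fl cells, a fold of 0.527 (0.283 to 0.947).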
